A study of Mus musculus with 15 samples.

Results

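Levels of 8 genes of the Notch pathway were examined in group 2 innate lymphoid cells (ILC2s) from mouse lungs. The genes were the ligands Jag1, Jag2 and Dll1, the receptors Notch1 and Notch2, the DNA-binding factor Rbpj, and the target genes Hes1 and Dtx1. They were found by symbol, as the 11 array features annotated with exactly 1 of these symbols, and for a gene with several features the brightest by its mean over the 15 arrays represents it. The feature was thus selected on a measured value, the mean level, and no difference between groups entered the rule. All 8 genes had a feature and all 8 passed the filter on dim features, among 22180 genes with a symbol of their own and 16257 past the filter. The 8 genes were chosen with earlier results of these data known, so counts over them describe these genes and are not independent evidence of a direction.

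There were 15 Affymetrix arrays in 5 groups, with 3 in each that the labels call biological replicates. Naive adults were untreated mice of 8 weeks, with 3 female and 3 male arrays. Effector adults had received the epithelial cytokine IL-33 into the nose on 3 consecutive days and were sampled 1 day after the last dose, again with 3 female and 3 male arrays, and their age is not given beyond adult. Neonates were naive mice of 10 days; the design names both sexes, but the 3 neonatal arrays carry no sex. The sources used here do not give strain, alleles, the sort markers or the number of mice per array. The p-values measure the spread between these replicates. No group was dosed without IL-33, so that dosing itself and IL-33 cannot be told apart, and any batch that follows the groups is not recorded.

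Notch receptors and their ligands are membrane proteins, and a receptor is activated when it meets a ligand on a neighbouring cell. The receptor is then cut by an ADAM protease and by gamma-secretase, and its freed intracellular part enters the nucleus, where it binds RBPJ together with a Mastermind coactivator and turns on targets such as the HES and HEY repressors. In lymphocytes the pathway is known for committing progenitors to the T cell lineage through NOTCH1, for the marginal zone B cell fate through NOTCH2, and for its part in the development and plasticity of innate lymphoid cells.

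RBPJ binds a core that reads TGGGAA, or TTCCCA on the opposite strand. The 250 bases before the annotated start of the 4 members that were called against naive adults are printed so that this core can be looked for in them. They are RefSeq sequences of GRCm38.p6, written from 5′ to 3′ along the gene, with matches to the core in capitals.
Jag1 (chr2:137116521-137116770, minus strand): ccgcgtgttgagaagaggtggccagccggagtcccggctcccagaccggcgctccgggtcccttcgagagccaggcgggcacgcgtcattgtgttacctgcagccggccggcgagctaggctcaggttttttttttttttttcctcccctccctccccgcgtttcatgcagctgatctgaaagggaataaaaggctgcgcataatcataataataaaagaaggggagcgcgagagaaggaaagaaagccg
Notch1 (chr2:26503823-26504072, minus strand): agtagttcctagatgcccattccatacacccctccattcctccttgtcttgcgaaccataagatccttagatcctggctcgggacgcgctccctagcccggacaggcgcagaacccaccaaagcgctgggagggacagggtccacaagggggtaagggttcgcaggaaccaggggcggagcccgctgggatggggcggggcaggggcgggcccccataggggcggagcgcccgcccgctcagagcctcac
Notch2 (chr3:98013288-98013537, plus strand): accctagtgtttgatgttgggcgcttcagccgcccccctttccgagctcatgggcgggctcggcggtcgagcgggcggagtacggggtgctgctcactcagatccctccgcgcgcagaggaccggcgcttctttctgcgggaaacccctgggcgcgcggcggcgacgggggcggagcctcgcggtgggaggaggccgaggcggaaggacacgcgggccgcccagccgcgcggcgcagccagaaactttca
Rbpj (chr5:53590096-53590345, plus strand): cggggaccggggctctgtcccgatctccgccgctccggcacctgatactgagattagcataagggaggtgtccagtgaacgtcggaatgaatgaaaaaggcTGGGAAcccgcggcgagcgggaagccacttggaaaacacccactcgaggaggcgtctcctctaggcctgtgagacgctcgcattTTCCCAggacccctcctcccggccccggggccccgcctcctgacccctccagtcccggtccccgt

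The table holds 2 annotated starts for Rbpj. The printed window, of the first of them, held 2 matches, TGGGAA beginning 149 and TTCCCA beginning 65 bases before that start. The window of the other start overlaps the printed one and held 1. It is the same TTCCCA, which begins 205 bases before that other start, and not a further site. Jag1, Notch1 and Notch2 held none. RefSeq windows were found for 7 of the 8 members, not for Hes1, and none of the windows of Jag2, Dll1 or Dtx1 held a match either. Of 32851 windows of the same length, 21.6% held at least 1. The N-box CACNAG, read on both strands and bound by HES repressors, was found once each in Notch1, Notch2 and Dtx1, against 36.7% of windows. The E-box CACGTG, also bound by HES and HEY repressors, was in none of the members' windows, against 6.02% of all windows. A match describes the letters only.

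Jag1, which encodes the ligand JAGGED1, was far higher in neonatal than in adult ILC2s. Its level, on the deposited log2 scale, was 10.45, 9.60 and 8.95 on the 3 neonatal arrays. Naive adult arrays ran from 5.94 to 7.47 with a median of 6.57. Effector adult arrays ran from 6.44 to 6.92 with a median of 6.67. Every neonatal array therefore lay above every adult array, and the naive and effector adult arrays overlapped.

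Neonates exceeded naive adults in Jag1 by 3.04 ± 0.31 on the log2 scale (SE, n = 3 neonatal and 6 naive adult arrays), a signal difference of 8.21-fold (limma adjusted p = 2.24e-05). This was the 10th largest positive difference among all 16257 genes. They exceeded effector adults by 2.97 ± 0.31, or 7.83-fold (limma adjusted p = 1.76e-05; n = 3 and 6 arrays). Effector and naive adults differed by 0.07 ± 0.25, with a 95% interval from -0.47 to 0.60 (limma adjusted p = 0.858; n = 6 arrays each). Such bulk arrays cannot tell apart more cells that carry a transcript and more transcript per cell.

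The other ligands lay near the array background. Background was read from 1400 features of olfactory and vomeronasal receptor genes, which lymphocytes do not use, and its 95th percentile was 5.46 in naive adults, 4.63 in effector adults and 4.88 in neonates. Jag2, a second JAGGED ligand, was at 4.19 ± 0.24 (SD, n = 6) in naive adults, 4.18 ± 0.16 (SD, n = 6) in effector adults and 4.54 ± 0.46 (SD, n = 3) in neonates. Dll1, a ligand of the Delta family, was at 4.38 ± 0.26, 4.08 ± 0.22 and 4.34 ± 0.11 in the same order. All of these means lay below the 95th percentile of their own group, although 1 neonatal array reached 5.06 in Jag2. Neither gene was called in any comparison of stages. The closest was Dll1 between effector and naive adults, at -0.30 ± 0.12 (limma adjusted p = 0.0757), which passed when naive male array 3 (-0.36, adjusted p = 0.04) or effector male array 1 (-0.38, adjusted p = 0.0325) was left out. After quantile normalization this difference was -0.15 (limma adjusted p = 0.408).

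**Figure D1:**
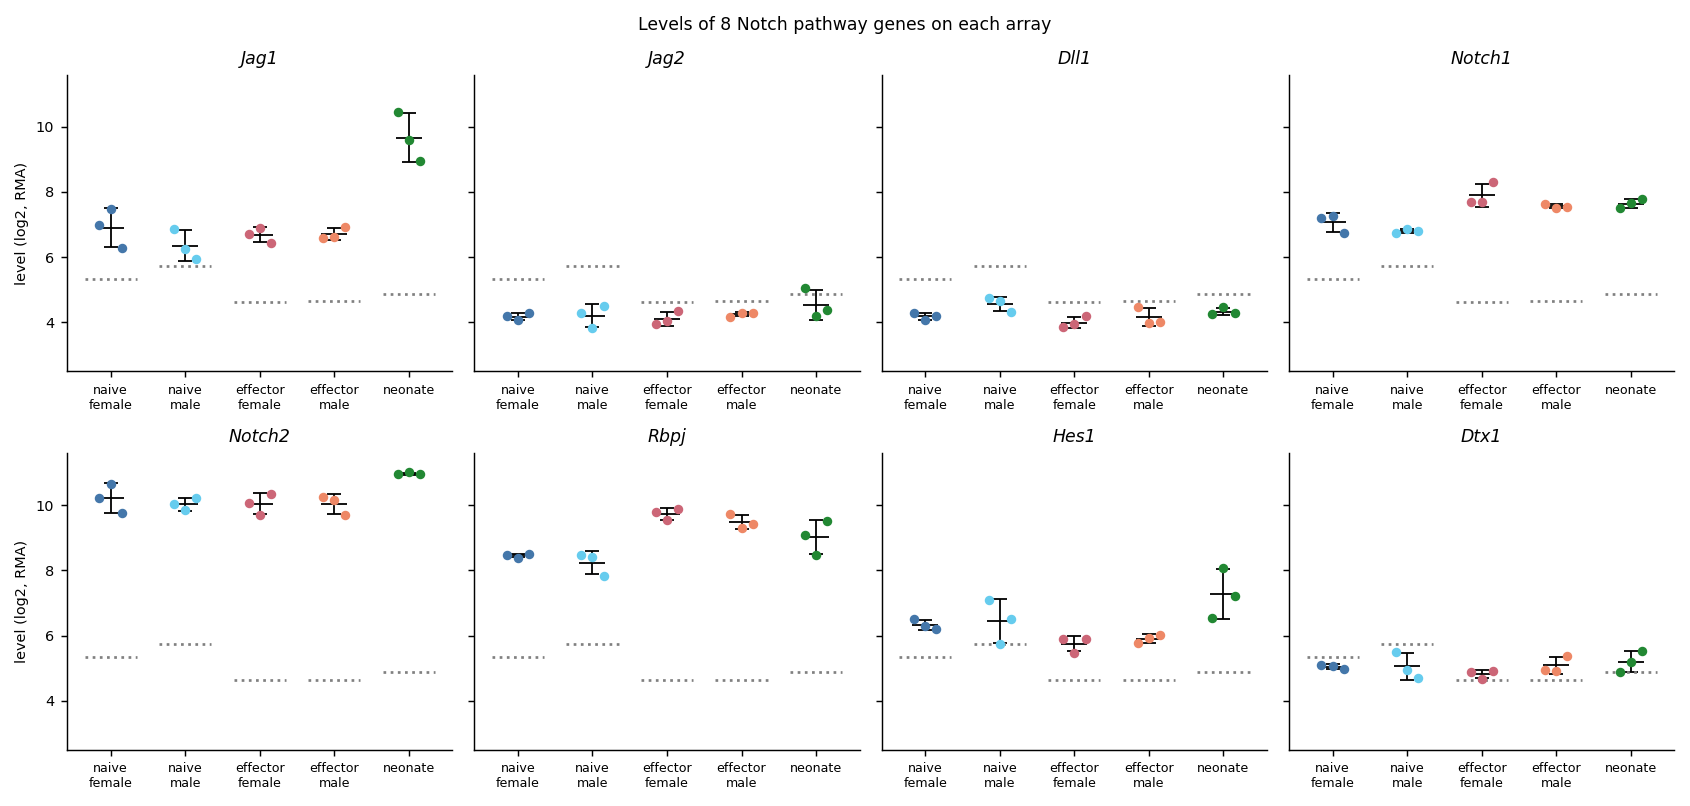
Level of each of the 8 genes on every array (log2 RMA value, vertical axis) by group (horizontal axis); points are arrays, bars the mean and SD of 3 arrays, and dotted lines the 95th percentile of olfactory and vomeronasal receptor features in that group. The 3 neonatal points of Jag1 sit between 8.95 and 10.45, above all adult points, and Jag2 and Dll1 lie mostly under the dotted lines; levels of different genes are not comparable with each other.

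Of the 8 genes, 3 were called higher in neonates than in naive adults, Jag1, Notch1 and Notch2, and none was called lower. Over all genes tested, 10.2% were called in this comparison, 6.04% higher and 4.12% lower. The median difference over the 8 genes was 0.69, against 0.02 over all genes. Calls required an adjusted p below 0.05, with adjustment across the 16257 genes. All neonatal arrays lay above all naive adult arrays for these 3 genes, as was the case for 6.88% of all genes, and 11.0% of all genes had no overlap in either direction.

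Against effector adults, neonates were called higher in Jag1, Notch2 and Hes1 and lower in none, where 20.6% of all genes were called, 5.93% higher and 14.7% lower. The median difference was 0.31 over the 8 genes and -0.03 over all genes, and all neonatal arrays lay above all effector arrays for these 3 genes, against 7.92% of all genes (24.1% without overlap in either direction). Effector adults were called higher than naive adults in Notch1 and Rbpj and lower in none, with 34.6% of all genes called, 23.7% higher and 10.9% lower. There the median was -0.05 over the 8 genes and 0.03 over all genes, and all effector arrays lay above all naive ones for these 2 genes and for 15.2% of all genes (20.1% without overlap in either direction). The 3 comparisons share arrays, as each stage enters a pair of them.

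**Figure D2:**
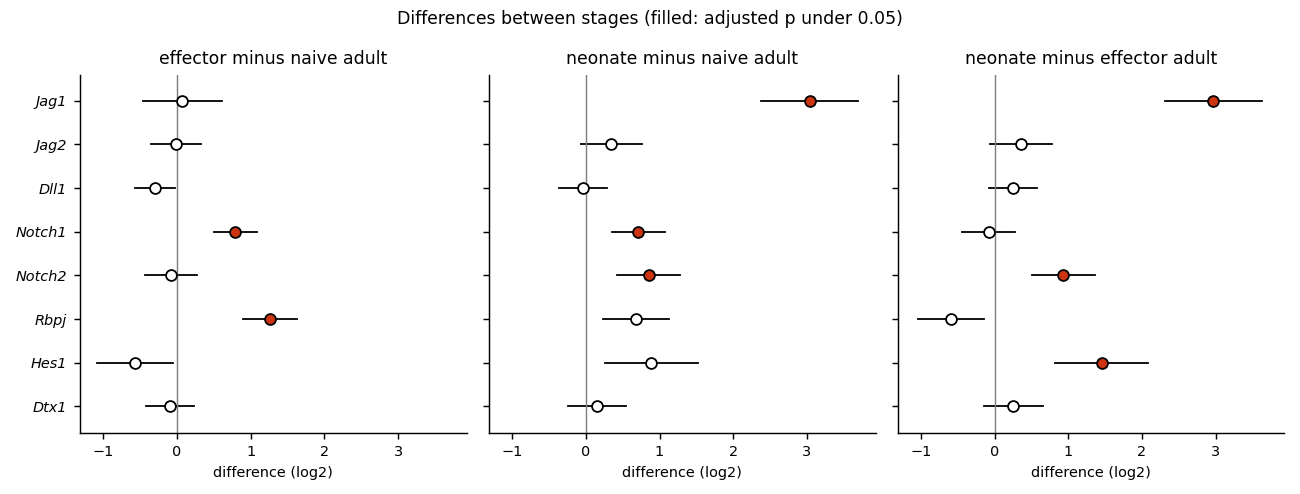
Differences in level between stages (log2, horizontal axis) for the 8 genes in each of the 3 comparisons; points are estimates, lines 95% intervals of the limma fit, and filled points have an adjusted p under 0.05. Jag1 stands at 3.04 and 2.97 in both neonatal comparisons and at 0.07 between effector and naive adults, while Rbpj stands highest between effector and naive adults, at 1.26.

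Notch1 was lowest in naive adults, and Notch2 was highest in neonates. Notch1, the receptor that drives T cell commitment, was at 7.51, 7.66 and 7.77 on neonatal arrays. On effector adult arrays it ran from 7.51 to 8.32 with a median of 7.65, and on naive adult arrays from 6.73 to 7.28 with a median of 6.84. Neonatal and effector arrays overlapped, and every naive adult array lay below both.

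Notch1 rose by 0.79 ± 0.14 from naive to effector adults, or 1.73-fold (limma adjusted p = 0.000406; n = 6 arrays each). Neonates exceeded naive adults by 0.71 ± 0.17, or 1.64-fold (limma adjusted p = 0.0145; n = 3 and 6 arrays). The latter call ended with array weights (0.67, adjusted p = 0.125), against adult females alone (0.58, adjusted p = 0.0968), and without naive male arrays 1 and 2 and neonatal array 2, the 3 least correlated arrays (0.70, adjusted p = 0.0901). Without those 3 arrays, here and below, naive males were left with array 3 alone. Neonates and effector adults differed by -0.08 ± 0.17, with a 95% interval from -0.44 to 0.28 (limma adjusted p = 0.775).

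Notch2, the receptor needed for marginal zone B cells, was at 10.96, 11.00 and 10.94 on neonatal arrays, an SD of 0.03. Naive adult arrays ran from 9.74 to 10.66 with a median of 10.12, and effector adult arrays from 9.68 to 10.33 with a median of 10.11. Neonatal arrays lay above all adult arrays, whose 2 stages overlapped. The difference was 0.85 ± 0.20 from naive adults (1.80-fold; limma adjusted p = 0.0155) and 0.93 ± 0.20 from effector adults (1.91-fold; limma adjusted p = 0.0051), each with n = 3 and 6 arrays. Effector and naive adults differed by -0.08 ± 0.17 (95% interval -0.44 to 0.27; limma adjusted p = 0.735).

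The call against naive adults was also less firm for Notch2. It ended without neonatal array 1 (0.85, adjusted p = 0.0503), with array weights (0.81, adjusted p = 0.109), against adult females alone (0.76, adjusted p = 0.0736), and without the 3 least correlated arrays (0.74, adjusted p = 0.132).

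Rbpj, the factor through which all Notch receptors act on DNA, had its highest mean level in effector adults. Its brighter feature ran from 9.31 to 9.87 on effector arrays with a median of 9.63, and from 7.82 to 8.50 on naive adult arrays with a median of 8.43. Neonatal arrays were at 9.08, 8.46 and 9.51, and so overlapped with both adult stages. The rise from naive to effector adults was 1.26 ± 0.17, or 2.40-fold (limma adjusted p = 4.82e-05; n = 6 arrays each). Neonates were at 0.68 ± 0.21 against naive adults (limma adjusted p = 0.0525) and at -0.59 ± 0.21 against effector adults (limma adjusted p = 0.0605), and neither difference passed.

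Both neonatal values of Rbpj moved across the threshold with the settings. Against naive adults the brighter feature was at 1.16 without the 3 least correlated arrays. That fit left naive males with array 3 alone, which at 7.82 was the lowest of the naive adult arrays. The brighter feature passed without neonatal array 2 (0.96, limma adjusted p = 0.00923) or without naive male array 1 (0.74, limma adjusted p = 0.0484). It also passed with the filter at percentile 60 (limma adjusted p = 0.0428) and with a trended and robust prior (limma adjusted p = 0.0355). Against effector adults it passed without neonatal array 3 (-0.83, adjusted p = 0.0124), without naive male array 3 (adjusted p = 0.0447), after centring each array on its median (-0.69, adjusted p = 0.0332), with a trended and robust prior (adjusted p = 0.0435) and as the mean of both features (-0.97, adjusted p = 0.0023). With 1 array left out the values ran from 0.43 to 0.96 against naive adults and from -0.83 to -0.31 against effector adults.

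A second, dimmer feature of Rbpj gave another neonatal picture. It was at 6.49 ± 0.17 (SD, n = 6) in effector adults, 5.51 ± 0.31 (SD, n = 6) in naive adults and 5.14 ± 0.57 (SD, n = 3) in neonates. When each feature was tested on its own, without the filter, it rose by 0.99 ± 0.18 from naive to effector adults (limma adjusted p = 0.000889 over 23521 features). It was at -0.37 ± 0.22 in neonates against naive adults (limma adjusted p = 0.339), where the brighter feature was at 0.68. Against effector adults it fell by 1.36 ± 0.22 (limma adjusted p = 0.00103). The features shared the direction of the effector difference and had opposite signs for neonates against naive adults, so that the mean of both was 0.15 there (adjusted p = 0.665).

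The mean level over all 15 arrays, by which a feature was chosen, was 8.98 for the brighter and 5.83 for the dimmer Rbpj feature. It was 4.25 and 3.86 for the 2 features of Dll1, and 5.04 and 3.50 for those of Dtx1. The dimmer features of Dll1 and Dtx1 did not pass the filter.

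Hes1, a transcriptional repressor and the best known direct target of Notch, had its highest mean level in neonates. The neonatal arrays read 6.55, 8.07 and 7.23. Naive adult arrays ran from 5.74 to 7.09 with a median of 6.40, and effector adult arrays from 5.48 to 6.03 with a median of 5.89. Neonatal arrays lay above all effector arrays and overlapped with naive adult arrays. Over 3 arrays the SD was 0.76 in neonates, 0.68 in naive males, 0.15 in naive females, 0.24 in effector females and 0.13 in effector males.

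Neonates exceeded effector adults in Hes1 by 1.45 ± 0.30, or 2.74-fold (limma adjusted p = 0.00339; n = 3 and 6 arrays). Against naive adults the difference was 0.89 ± 0.30 and did not pass (limma adjusted p = 0.0697). It passed without neonatal array 1 (1.26, adjusted p = 0.0222) or naive male array 1 (1.05, adjusted p = 0.0304). Without neonatal array 2 it fell to 0.495 (adjusted p = 0.305), and without the 3 least correlated arrays to 0.46 (adjusted p = 0.239). Effector adults were at -0.56 ± 0.24 against naive adults and did not pass (limma adjusted p = 0.0836). That difference passed without naive male array 2 (-0.74, adjusted p = 0.0207), without the 3 least correlated arrays (-0.60, adjusted p = 0.0202), with array weights (-0.58, adjusted p = 0.0232), with only the arrays compared (adjusted p = 0.034), and without neonatal array 1 or 2 (adjusted p = 0.0475 and 0.0396). It shrank to -0.40 without naive male array 1 (adjusted p = 0.202) and to -0.425 after centring (adjusted p = 0.188).

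Dtx1 encodes DELTEX1, an E3 ubiquitin ligase that acts on Notch and is itself induced by it. It was at 5.05 ± 0.26 (SD, n = 6) in naive adults, 4.95 ± 0.23 (SD, n = 6) in effector adults and 5.20 ± 0.32 (SD, n = 3) in neonates. The naive mean lay below the 95th percentile of the receptor features and the other means lay above their own. No comparison of stages called it, and the 95% interval of the neonatal difference from naive adults ran from -0.25 to 0.55.

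The sexes were compared within naive and within effector adults. No member was called in naive adults, where 34 genes or 0.209% were called, and none in effector adults, where 5 genes or 0.0308% were called. In naive adults the differences of females from males ran from -0.39 ± 0.18 for Dll1 to 0.56 ± 0.36 for Jag1 (limma adjusted p = 0.492 and 0.645; n = 3 arrays each), and only Dll1 had an unadjusted p under 0.05. In effector adults they ran from -0.27 for Dtx1 to 0.34 for Notch1, and no member had an unadjusted p under 0.05.

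The response, meaning the difference of effector from naive adults, was not shown to differ between the sexes for any member. The test of the difference in limma called 0 of 16257 genes, with 866 at an unadjusted p under 0.05, none of them a member. The largest difference of responses among the members was -0.58 ± 0.50 for Jag1, with a 95% interval from -1.65 to 0.49. In Notch1 females went from 7.06 to 7.89 and males from 6.80 to 7.56, and in Rbpj females went from 8.45 to 9.73 and males from 8.23 to 9.48.

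The rest of the pathway was taken from 9 lists of 66 genes by role, of which 58 were tested, 2 failed the filter and 6 lacked a feature of their own. Of the 58, 13 rose and 5 fell from naive to effector adults (31.0%, against 34.6% of all genes). In neonates against naive adults 4 were higher and 3 lower (12.1%, against 10.2%). In neonates against effector adults 5 were higher and 6 lower (19.0%, against 20.6%). These shares lay near the background, and the medians of 0.10, 0.04 and -0.04 lay beside 0.03, 0.02 and -0.03 over all genes.

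Other ligands and receptors were not called in any of the 3 comparisons of stages. Of 5 other ligands, Dll4, Dlk1 and Dlk2 were tested and Dll3 and Dner lay below the filter. Notch3 and Notch4, both tested, were at 4.81 and 5.70 in neonates, 4.71 and 5.48 in naive adults, and 4.59 and 5.22 in effector adults. Among 5 genes that glycosylate Notch, Lfng, a Fringe enzyme that alters which ligand a receptor prefers, fell by 0.70 ± 0.15 from naive to effector adults (limma adjusted p = 0.00172; n = 6 arrays each) with no overlap. Poglut1, which adds O-glucose to Notch repeats, rose by 0.58 ± 0.20 (limma adjusted p = 0.0363), but 11 of 25 alternatives lost the call, 9 of them by leaving out 1 adult array. None of the 5 was called in neonates against naive adults.

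Of 9 tested genes that cleave the receptor, 4 rose in effector adults and none fell (44.4%), where 23.7% of all genes rose and 10.9% fell, so that with 9 genes nothing is read from the count. Furin, the convertase that makes the first cut as the receptor matures, rose by 1.21 ± 0.17 (limma adjusted p = 6.93e-05). Adam10, which makes the ligand-dependent cut, rose by 0.64 ± 0.12 (limma adjusted p = 0.000965). Adam17, a related protease, and Ncstn, a gamma-secretase subunit, rose by 0.53 and 0.45 (limma adjusted p = 0.0142 and 0.0282). In neonates Furin was also higher than in naive adults, by 1.27 ± 0.21 (limma adjusted p = 0.00139; n = 3 and 6 arrays). Psen2, a catalytic subunit of gamma-secretase, was lower there at -0.76 ± 0.14 (limma adjusted p = 0.00365). Its neonatal arrays read 5.94, 5.81 and 6.30 and naive adult arrays 6.44 to 6.97, with no overlap. Psenen, another subunit of gamma-secretase, was also lower at -0.57 (limma adjusted p = 0.0121).

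Among 8 coactivators of RBPJ 2 rose and 1 fell in effector adults (37.5% called), and among 9 tested corepressors 2 rose and 1 fell (33.3%), shares near the 34.6% of all genes. The coactivators that rose were Snw1, known as SKIP, at 0.80 ± 0.13 (limma adjusted p = 0.000331) and the acetyltransferase gene Kat2a at 0.54 ± 0.17 (limma adjusted p = 0.0219). The Kat2a call ended without naive male array 2, without the 3 least correlated arrays and after quantile normalization. Crebbp, the gene of the acetyltransferase CBP, fell by 0.45 (limma adjusted p = 0.00864). In neonates 1 of 8 was called, the Mastermind gene Maml1 at 0.72 ± 0.22 (limma adjusted p = 0.048), and that call was lost in 18 of 27 alternatives. Among the corepressors, the deacetylase gene Hdac1 rose by 1.32 ± 0.19 and Tle3 by 0.86 ± 0.14 in effector adults, while Tle4, another Groucho family gene, fell by 1.01 ± 0.19 (limma adjusted p = 9.33e-05, 0.000238 and 0.000814). No corepressor was called in neonates against naive adults.

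Of 12 tested ubiquitin ligases and trafficking genes, Neurl3 fell by 1.41 ± 0.12 from naive to effector adults, from 11.93 to 10.52 (limma adjusted p = 3.91e-07), and was lower in neonates than in naive adults at -0.59 ± 0.15 (limma adjusted p = 0.02). Neurl3 is a member of the Neuralized family of E3 ligases. Neurl1b of the same family rose by 0.53 ± 0.19 in effector adults (limma adjusted p = 0.0386), a call that 13 of 24 alternatives lost. Its naive adult arrays, at 3.92 to 4.35, lay below the 95th percentile of the receptor features. Effector arrays ran from 4.48 to 5.11, around their percentile of 4.63. Mib1, the ligase that ubiquitinates Notch ligands in the cell that presents them, was higher in neonates than in naive adults by 0.74 ± 0.18 (limma adjusted p = 0.0169). Without neonatal array 1 the Mib1 call ended, and without neonatal array 3 that of Neurl3 in neonates. Both also ended with array weights, with only the arrays compared and without the 3 least correlated arrays, and that of Neurl3 against adult males alone.

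Among 6 other HES, HEY and feedback targets, Hey1, a repressor related to HES1, was at 7.76, 8.11 and 6.96 on neonatal arrays. Naive adult arrays ran from 6.07 to 6.66 and effector adult arrays from 6.69 to 7.48. Hey1 was higher than in naive adults by 1.21 ± 0.21 in neonates (limma adjusted p = 0.00202) and rose by 0.60 ± 0.17 in effector adults (limma adjusted p = 0.0146), without overlap with naive arrays in either case. The effector call ended after quantile normalization. Hey2 fell by 0.49 ± 0.15 in effector adults (limma adjusted p = 0.018) and lost its call after centring and after quantile normalization. It lay below the 95th percentile of the receptor features in both adult stages. Naive arrays ran from 4.37 to 5.13, and the effector mean was 4.23. Hes5, Hes7, Heyl and Nrarp were not called in either comparison.

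Of 4 tested genes known as Notch targets in lymphocytes, Myc rose by 0.74 ± 0.19 and Il2ra, the IL-2 receptor alpha chain, by 0.45 ± 0.11 in effector adults (limma adjusted p = 0.00785 and 0.00672). Both calls ended without the 3 least correlated arrays. None of the 4 was called in neonates against naive adults.

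**Figure D3:**
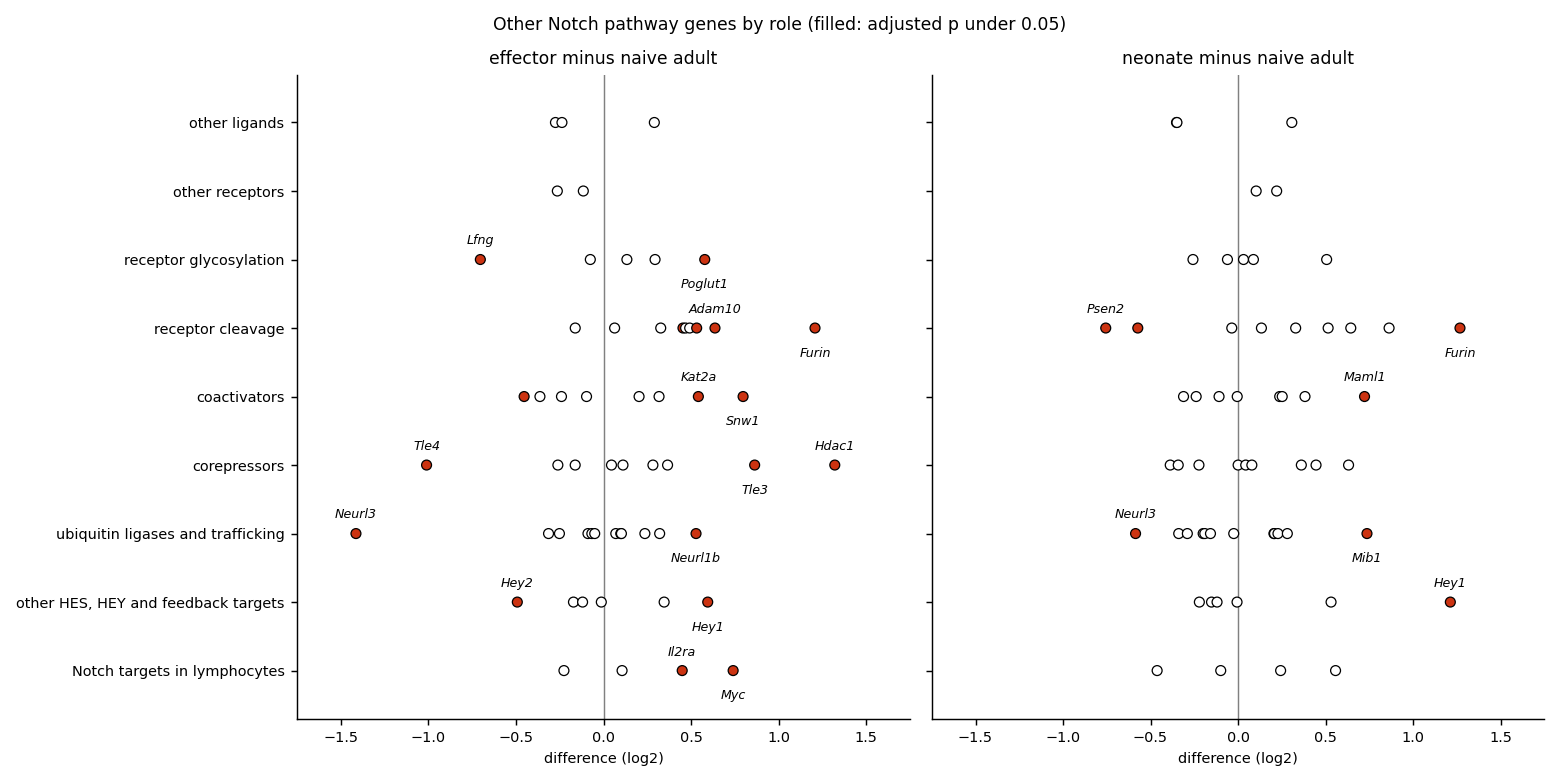
Differences (log2, horizontal axis) of the 58 other pathway genes by role (rows), between effector and naive adults on the left and neonates and naive adults on the right; each point is a gene, filled where the adjusted p is under 0.05, and labels name up to 3 called genes of each role. Filled points lie on both sides of 0 in both panels, with Hdac1 at 1.32 and Neurl3 at -1.41 on the left and Furin at 1.27 and Hey1 at 1.21 on the right.

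**Figure D4:**
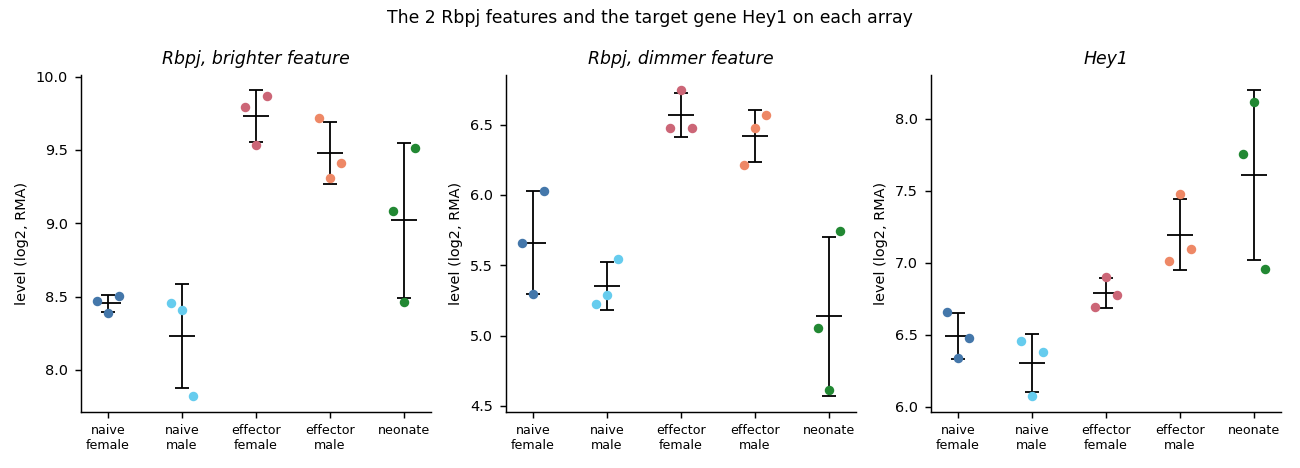
Level on every array (log2 RMA value, vertical axis, a separate range in each panel) by group for the 2 features of Rbpj and for Hey1; points are arrays and bars the mean and SD of 3. Both Rbpj features have their highest means in effector adults, the neonatal arrays of the dimmer one reach from 4.61 to 5.74, and Hey1 is at 6.96 to 8.11 in neonates.

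Genes whose levels ran most like a member over the 15 arrays were found as the smallest root mean square difference after each gene was centred on its own mean, among 14208 named genes. For Jag1, whose own spread was 1.28, these were Ptgs2 (0.56), which encodes cyclooxygenase-2, the melanocortin receptor gene Mc5r (0.59) and the growth factor gene Vegfa (0.60). Ptgs2 was at 10.14, 9.69 and 9.05 on the neonatal arrays and between 5.49 and 7.04 on naive adult arrays. For Notch1, with a spread of 0.44, they were Zap70 (0.16), a kinase of antigen receptor signalling, Sh2d2a (0.16) and Osbpl3 (0.16).

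For Notch2, also with a spread of 0.44, they were Maged1 (0.17), the salt-inducible kinase gene Sik1 (0.19) and Kbtbd7 (0.21). Those of Rbpj, with a spread of 0.63, were Idh3a (0.23), a subunit of mitochondrial isocitrate dehydrogenase, the kinesin gene Kif2a (0.23) and Degs1 (0.24). Hes1, with a spread of 0.66, had as its nearest genes Tspo2 (0.36), Umod (0.38) and Shc3 (0.38). The means of these 3 genes lay below the 95th percentile of the receptor features in both adult stages. In neonates they were 4.88, 5.19 and 4.90, beside a percentile of 4.88, so the genes nearest Hes1 lay near background. In naive adults Mc5r (5.40), Maged1 (5.11) and Degs1 (4.74) also lay below the percentile of 5.46. The likeness is a description over arrays that share 5 groups.

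Markers of ILC2s and of other lung cells were read on the same arrays. The 13 tested ILC2 markers of 14 had a mean level of 9.11 to 9.34 on naive adult, 8.76 to 9.07 on effector adult and 8.95 to 9.44 on neonatal arrays. The lowest was Hpgds, at 5.10 in naive adults and so below the 95th percentile of the receptor features, and at 6.13 in neonates. Of the 13, Rora was higher (0.73) and Il7r lower (-0.66) in neonates than in naive adults (limma adjusted p = 0.00731 and 0.0263). The 9 tested endothelial markers of 11 stand for a cell type that uses JAGGED1. Their mean was 4.74 to 5.52, 4.56 to 4.90 and 4.88 to 5.04 in the same order. In each of the 3 stages 7 of the 9 lay below that percentile, which was 5.46 in naive and 4.63 in effector adults. In neonates against naive adults none of them was higher and 2 were lower, against 6.04% and 4.12% of all genes. In effector against naive adults 5 were lower, against 10.9% of all genes, with most of the list near background.

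Of 10 tested epithelial markers of 12, 2 were higher in neonates than in naive adults, against 6.04% of all genes. Sftpc, the surfactant gene of alveolar type II cells, was at 8.02, 7.64 and 6.86 on neonatal arrays, against 4.50 to 7.25 on naive adult arrays (1.98 ± 0.46, limma adjusted p = 0.0128). Nkx2-1 differed by 0.69 ± 0.16 (limma adjusted p = 0.0144) but lay near background. Its neonatal arrays read 4.49, 4.88 and 4.13, and none exceeded the 95th percentile of the receptor features. Its naive mean was 3.81, also below that percentile. The epithelial list had a mean of 4.93 to 5.26 on naive adult, 4.85 to 5.26 on effector adult and 5.11 to 5.47 on neonatal arrays, and 5 of the 10 lay below the percentile in neonates. One gene each was higher among 6 fibroblast and mural markers (Pdgfrb, 0.94 ± 0.25), 9 macrophage and dendritic cell markers (Cd68, 0.72 ± 0.21) and 6 T cell markers (Cd3e, 1.21 ± 0.25), with limma adjusted p = 0.0274, 0.0436 and 0.00587. With lists this short nothing is read from these counts, beside the 6.04% of all genes. Of the 6 T cell markers, 3 lay below the 95th percentile of the receptor features in neonates. The highest, Cd3g, was at 10.37 in neonates, 10.22 in naive adults and 9.65 in effector adults. Neither of 2 tested B cell markers was called in neonates against naive adults. In neonates against effector adults 3 of 6 fibroblast and mural, 2 of 6 T cell and 2 of 10 epithelial markers were higher. So were 1 of 9 endothelial, 1 of 9 macrophage and dendritic cell and 1 of 2 B cell markers, and none was lower. Of all genes 5.93% were higher and 14.7% lower there, and these lists too are short. The part of other lung cells in the neonatal differences of Jag1, Notch1, Notch2, Hes1 and Hey1 was not tested.

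Medians of single arrays ran from 4.44 to 4.64, and pairs of arrays correlated over all features at r = 0.870 to 0.977. The mean level of the olfactory and vomeronasal receptor features was 3.14 to 3.62 on naive adult arrays, 2.72 to 2.85 on effector adult arrays and 3.03 to 3.37 on neonatal arrays. With arrays centred on their medians, the median difference of all genes moved from 0.03 to 0.17 between effector and naive adults and from -0.03 to -0.14 between neonates and effector adults. Of the calls, 68.5% were higher in the first and 28.8% in the second, and 83.0% and 16.4% after centring. The called differences of the members kept their calls and signs under centring.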

How the data were processed

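RNA of each replicate was hybridised to its own array, 15 in all. Per the submitters' processing notes the authors used Affymetrix Expression Console and RMA, and the deposited values are log2 levels per feature, background-corrected, normalized and summarised by that method. The sources used here do not give versions or annotation. For arrays, their number limits the precision.

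Of 41345 features, 23521 had 1 gene symbol, 1814 several and 16010 none. Only the first were used. Features exceeding percentile 40 of the array on 3 or more arrays were kept, and the brightest feature of a gene was taken, which left 16257 genes. With limma 3.58.1 in R 4.3.3, group means were fitted using all 15 arrays (10 residual and 5.05 prior degrees of freedom). Adult sexes were weighted equally. Tests were two-sided with Benjamini-Hochberg adjustment over all genes, and SE is the moderated standard error. The same fit on simulated data of 16257 genes recovered 95, 67 and 81 of 100 genes moved by 1 log2 unit for effector against naive adults, neonates against naive adults and neonates against effector adults, with 10, 6 and 7 false calls. The simulation gave every gene the same spread and also moved 100 genes by 2 log2 units, all recovered. In the real arrays spreads vary by gene and more genes were called, so these numbers check the fit and do not measure its power.

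The members and gene lists were chosen with earlier results of these data known. Text names all members, up to 3 called genes per pathway list with the largest difference from naive adults, and the 3 genes most like each called member. Other called pathway genes, the other receptors, Cd3g and markers called in neonates against naive adults were named after their values were seen. Feature-level tests and the fit without the 3 least correlated arrays were added after the data were seen. Replicate numbers are shared between groups, but only 1 of 30 same-numbered pairs had deviations correlated above 0.1, so they were not used as pairs in the main result. Figures were drawn with matplotlib 3.10.9.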

Additional observations from a re-analysis of the deposited data

Results flagged for a closer look

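Notch1 on effector female array 3 was 8.32, set apart from the other 5 effector adult arrays, which ran from 7.51 to 7.69. Without this array the rise from naive to effector adults was 0.69 (limma adjusted p = 0.00106).

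Rbpj on naive male array 3 was 7.82, set apart from the other naive adult arrays, which ran from 8.39 to 8.50. Without it the rise to effector adults was 1.16 (limma adjusted p = 0.000121).

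Both were found among 16 sets of 6 arrays, and chance sets apart about 5% of such sets.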

How the results depend on the processing

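Against naive adults the neonatal Jag1 difference (2.64 to 3.40) and the effector differences of Notch1 (0.60 to 0.93) and Rbpj (1.11 to 1.47) kept sign and call under every alternative run, as did the neonatal differences from effector adults of Jag1 (2.58 to 3.33), Notch2 (0.83 to 1.01) and Hes1 (1.06 to 1.82). The 1.47 of Rbpj came without the 3 least correlated arrays, a fit that left naive males with array 3 alone. The other calls of members are given above with the settings that changed them, and the cause was not tested. With the replicate block 5511, 1533 and 3178 genes were called in the 3 comparisons of stages (5628, 1652 and 3346 without it), 2, 3 and 3 of them members, and it changed no call of a member.

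Genes called in neonates against naive adults numbered 705 with array weights, 676 with only the arrays compared, 935 against adult females alone, and 1031 (without neonatal array 1) to 1856 with 1 array left out. Members called there were 1 with array weights, 1 against females alone, and 3 to 5 with 1 array left out (5 without naive male array 1). Against effector adults they numbered 2068 with array weights, 1942 against females alone, and 2061 (without neonatal array 2) to 3761. For the difference of responses 1 gene was called with the filter at percentile 60, after centring, with array weights, with the block and without the 3 least correlated arrays, and 0 to 8 with 1 array left out (8 without naive male array 3). Between naive sexes 19 were called with array weights, 8 with only the arrays compared and 16 to 99 with 1 left out (99 without naive male array 3, 16 to 22 without any of naive male array 2, the 3 naive female arrays, effector female array 3 and effector male array 1). Between effector sexes 11 were called with array weights and 8 with only the arrays compared. No member was called in these 3 comparisons under any alternative.

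Differences near 0 that were never called changed sign. For effector against naive adults these were Jag2 (0.13 centred, 0.15 quantile normalized, -0.11 to 0.0657 with 1 array left out), Notch2 (0.0569 centred, -0.20 to 0.0308), Dtx1 (0.0394 centred, 0.0714 without the 3 least correlated arrays, -0.19 to 0.0118) and Jag1 (-0.10 quantile normalized, -0.0065 with array weights, -0.0913 to 0.21). For neonates they were Dll1 against naive adults (0.15 females alone, 0.0103 without the 3 arrays), Dtx1 (-0.0082 to 0.31 with 1 left out), and Notch1 against effector adults (0.11 quantile normalized, 0.0893 males alone, -0.14 to 0.0257). With the filter at percentile 60 Jag2 and Dll1 were not tested.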
